A study of Mus musculus with 28 samples.

Results

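The 34 genes described here moved in opposite directions in the bladder and the proximal stomach of fetal mice that lack p63. They were chosen from 18193 genes by the measured values themselves. A gene entered the set when the knockout minus wild-type difference of group means at embryonic day 18 (E18) was at least 1 on the log2 scale in bladder and at most -1 in proximal stomach, or the reverse. In 26 of the 34 the knockout was higher in bladder and lower in proximal stomach, and in 8 it was lower in bladder and higher in proximal stomach. Nlrp10, S100a3, S100a9, Shh and Upk3bl met the same thresholds and were left out by name. Because the 8 E18 arrays of these tissues chose the genes, both E18 contrasts are described without a test. Tests compare group means from arrays that the rule did not read. Their standard errors still draw on the spread of all 28 arrays, the 8 of the rule included.

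All animals were Balb/c mouse fetuses, either p63 knockout (KO) or wild type (WT), with no further treatment. Bladders came from E15, E18 and E19 fetuses. The proximal and distal parts of the stomach and the small and large intestines came from E18. Every combination of genotype, tissue and stage was hybridised on 2 Affymetrix mouse 430 2.0 arrays, 28 arrays in 14 groups, and every value is a log2 level of a probe set. The sources used here give neither the knockout allele nor the animals' number or sex, and the labels do not say whether replicates are separate animals, so p-values measure only the spread between these samples. With 2 arrays per group the smallest p of an exact permutation test is 0.333. The calls therefore rest on limma, a linear model fitted to 13613 genes on all 28 arrays, with p-values adjusted over all of them by the method of Benjamini and Hochberg. Of the 34 members, 32 passed the filter on dim probe sets for that model, and Mymx and Mylk4 did not.

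The p63 gene (symbol Trp63) encodes a transcription factor of the p53 family that marks the basal layer of stratified epithelia. The mouse proximal stomach, or forestomach, is lined by a keratinising squamous epithelium, and the bladder by urothelium, a layered epithelium whose surface cells carry uroplakin plaques. Without p63, both organs form epithelium that lacks the normal basal layer. The outer squamous layers hold an ultra-long-chain ceramide barrier, which Elovl4, Degs2 and Cyp4f39 help to build. On these arrays the basal keratin Krt5 differed between knockout and wild type at E18 by -4.83 in bladder and by -5.80 in proximal stomach on the log2 scale. The Trp63 probe set itself differed by -1.10 in bladder and by 0.49 in proximal stomach; whether it lies in the part of the gene that the allele removes is not given, so it does not check the labels. Replicates of a group correlated at 0.980 to 0.994 across genes, which are not independent replicates. These are bulk tissues, so fewer cells of a type and less RNA per cell cannot be told apart.

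Upstream sequence was read for the members from RefSeq windows of assembly GRCm38.p6, 250 bases ending just before the annotated start, and 27 of the 34 members had a window. A p53 family half-site consensus, searched on both strands, lay in the windows of 3 members (Cyp2f2, Ccl6 and Stfa2l1), and in 7.13% of all 32851 windows. The MEF2 consensus, named for a family of muscle transcription factors, lay in 2 of the 27, which were Mylk4 and Synpo2l, 2 of the 6 skeletal muscle genes with a window, and in 2.92% of all windows. The E-box CAGCTG, the kind bound by myogenin, lay in 5 members, among them the muscle genes Myl1, Mylpf and Mylk4, and in 13% of all windows. The AP-1 motif TGANTCA lay in 1 member, Ptgds, and in 6.75% of all windows. The windows of 5 members are printed 5′ to 3′ to show where the half-site, MEF2 and E-box letters fall, which are in capitals. A match describes these letters and does not show binding.
Cyp2f2 (chr7:27119705-27119954, plus strand): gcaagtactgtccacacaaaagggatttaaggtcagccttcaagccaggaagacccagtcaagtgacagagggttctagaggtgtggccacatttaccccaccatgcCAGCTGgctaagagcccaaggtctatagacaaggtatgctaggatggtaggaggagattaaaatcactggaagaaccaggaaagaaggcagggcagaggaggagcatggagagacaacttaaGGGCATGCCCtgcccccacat
Ccl6 (chr11:83593088-83593337, minus strand): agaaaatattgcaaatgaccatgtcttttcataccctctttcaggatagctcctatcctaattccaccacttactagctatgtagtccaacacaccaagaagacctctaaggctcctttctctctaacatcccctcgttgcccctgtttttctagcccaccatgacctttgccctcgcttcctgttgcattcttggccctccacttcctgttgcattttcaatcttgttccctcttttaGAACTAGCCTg
Stfa2l1 (chr16:36156561-36156810, plus strand): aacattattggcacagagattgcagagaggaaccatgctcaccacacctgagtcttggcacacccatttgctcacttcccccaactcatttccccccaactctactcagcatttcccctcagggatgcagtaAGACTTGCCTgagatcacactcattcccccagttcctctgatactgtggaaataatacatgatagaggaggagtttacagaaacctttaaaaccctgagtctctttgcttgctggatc
Mylk4 (chr13:32783965-32784214, minus strand): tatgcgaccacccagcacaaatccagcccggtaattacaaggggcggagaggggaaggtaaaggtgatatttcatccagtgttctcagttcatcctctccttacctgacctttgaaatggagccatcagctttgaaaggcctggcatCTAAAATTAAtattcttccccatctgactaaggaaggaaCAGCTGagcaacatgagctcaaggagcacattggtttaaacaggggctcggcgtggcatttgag
Synpo2l (chr14:20668355-20668604, minus strand): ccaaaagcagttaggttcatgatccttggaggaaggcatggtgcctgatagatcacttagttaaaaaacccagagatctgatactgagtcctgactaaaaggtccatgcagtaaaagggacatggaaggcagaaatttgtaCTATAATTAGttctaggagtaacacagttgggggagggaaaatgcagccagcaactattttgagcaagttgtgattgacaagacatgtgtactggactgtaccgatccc

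Opposite movement was a small part of what changed at these thresholds. In bladder at E18, 206 of the 18193 genes were at least 1 log2 higher in knockout (1.13%) and 111 lower (0.610%). In proximal stomach 925 were higher (5.08%) and 909 lower (5.0%). At the same thresholds 61 genes were higher and 43 lower in both tissues. Just inside the rule lay Slfn2 (1.08 in bladder and -1.003 in proximal stomach), Myl1 (1.76 and -1.01), Igsf10 (-1.31 and 1.03), Fam167a (-1.03 and 3.31) and Blnk (1.03 and -2.81). Just outside lay Sgpp2 (1.61 and -0.997), Dkkl1 (0.995 and -3.96), Fez1 (1.10 and -0.990), Rgs9bp (0.981 and -2.56) and Alb (0.973 and -1.05). The members therefore form the tail of a continuous range of differences. For 12 members the array holds 20 further probe sets, of which 17 had the same signs at E18 and 7 met the rule themselves.

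**Figure D1:**
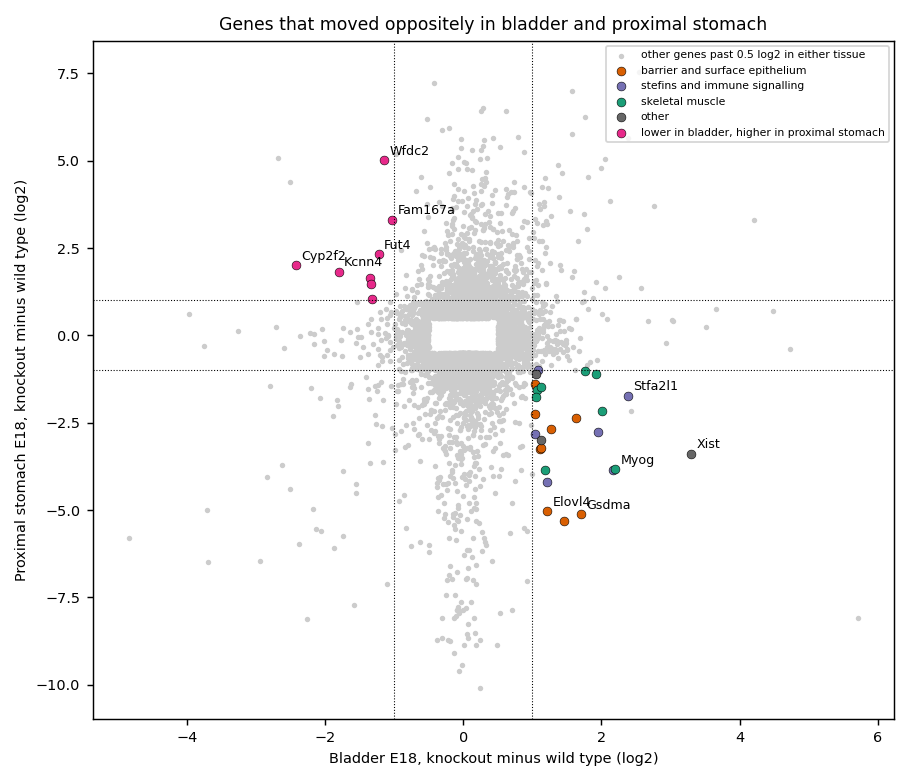
Knockout minus wild-type difference of group means at E18 in bladder (horizontal axis, log2) and proximal stomach (vertical axis, log2), 1 point per gene, with members coloured by role and dotted lines at -1 and 1. Genes under 0.5 log2 in both tissues are not drawn, and grey points beyond the dotted lines in the members' corners are the genes left out by name. The 26 members at lower right are higher in knockout bladder and lower in knockout proximal stomach, and the 8 at upper left are the reverse.

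The opposite differences also turned round the order of the tissues. Among the 26 genes higher in knockout bladder, wild-type proximal stomach had the higher level than wild-type bladder for 25, and knockout proximal stomach for 4. The order switched for 21 of them. Gsdma, for example, had a proximal stomach minus bladder difference of 6.01 in wild type and of -0.81 in knockout, on the log2 scale. Among the 8 genes lower in knockout bladder, proximal stomach was the higher tissue for 3 in wild type and for 8 in knockout, and 5 switched (Wfdc2, Fut4, Kcnn4, Igsf10 and Fam167a). These counts use the E18 arrays of the rule, which favours such a switch, and carry no test.

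**Figure D2:**
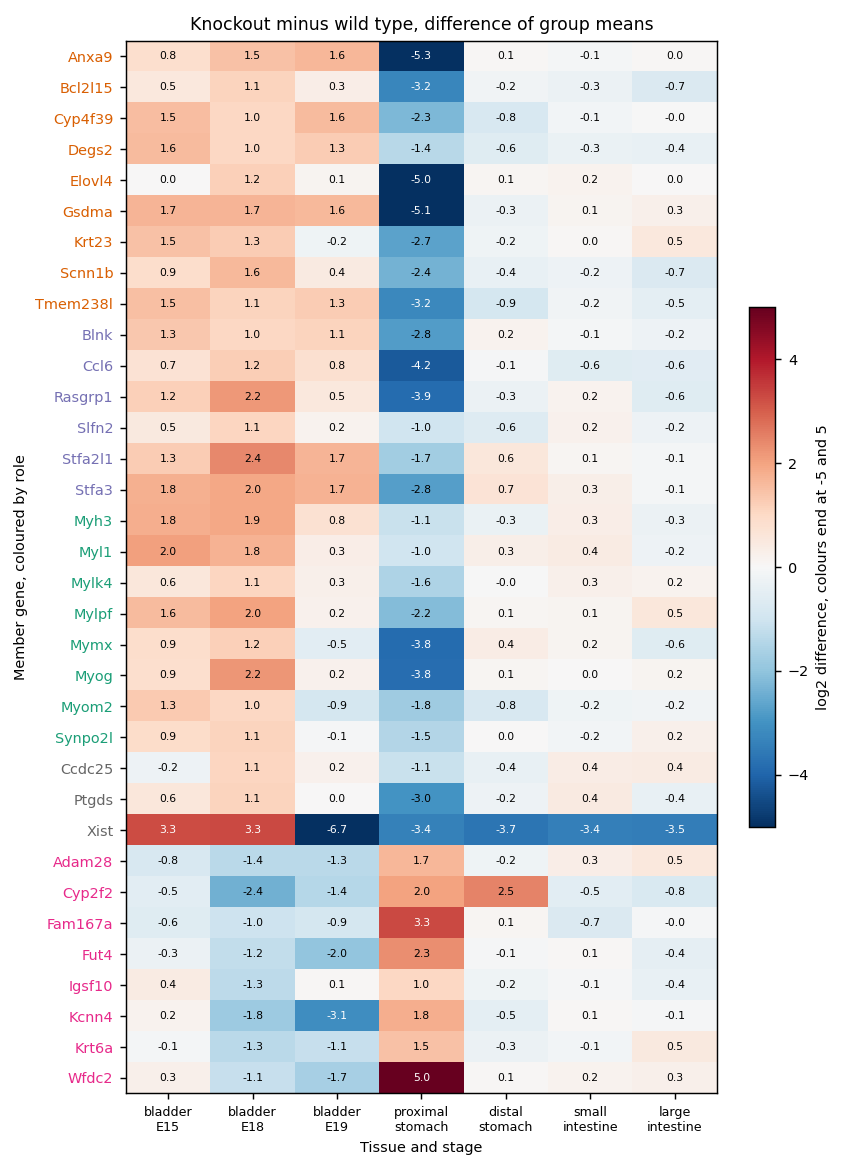
Knockout minus wild-type difference of group means (log2, colour and printed value) for each of the 34 members in 7 tissues and stages, with gene names coloured by role as in the scatter of E18 differences. The E18 bladder and proximal stomach columns chose the genes, and the distal stomach and intestine columns are pale for all roles except Xist and, in distal stomach, Cyp2f2.

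Among the 26, 9 were grouped for this description as genes of barrier or surface epithelium. Bcl2l15 and Tmem238l are in that group by this choice alone: Bcl2l15 read 13.83 and 12.80 in wild-type small intestine and 5.99 and 5.86 in wild-type E18 bladder, and no role is given here for Tmem238l. Degs2 was not confined to stratified tissue either. Its wild-type means were 12.63 in small intestine, 12.25 in large intestine and 11.96 in distal stomach, against 11.54 in proximal stomach. Cyp4f39 encodes a fatty acid omega-hydroxylase, Degs2 a sphingolipid hydroxylase and desaturase, and Elovl4 an elongase of very long fatty acids. Gsdma encodes a pore-forming gasdermin of skin and upper gut epithelium, Anxa9 an annexin, Krt23 a type I keratin, Scnn1b a subunit of the epithelial sodium channel and Bcl2l15 a member of the Bcl2 family. Tmem238l carries an lncRNA label in the RefSeq table. For all 9, both knockout arrays lay above both wild-type arrays in bladder at E18, as for 27.0% of all genes that passed the filter, and below them in proximal stomach, as for 28.6%. The rule used these arrays, so nothing is read from that count. The actin control probe sets, whose 3′ minus 5′ difference grows as RNA degrades, differed by 0.48 and 0.61 on the knockout proximal stomach arrays and by 0.97 and 0.88 on the wild-type ones, so this measure went with genotype there, and its part in the proximal stomach differences was not tested.

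Gsdma showed the pattern in full. In bladder its 2 knockout arrays read 7.59 and 7.36 at E15, 8.28 and 8.63 at E18, and 8.03 and 7.95 at E19. The wild-type arrays read 5.41 and 6.12, 6.86 and 6.66, and 6.22 and 6.54. Knockout was thus above wild type at all 3 stages without overlap. In proximal stomach Gsdma read 7.54 and 7.76 in knockout against 12.98 and 12.56 in wild type. Scnn1b in bladder read 9.09 and 8.73 in knockout at E15, 9.87 and 9.60 at E18, and 8.55 and 8.58 at E19. Its wild-type arrays read 7.91 and 8.13, 7.87 and 8.34, and 8.05 and 8.21. The groups were apart at each stage and closest at E19. In proximal stomach Scnn1b read 7.21 and 7.32 in knockout and 9.75 and 9.51 in wild type.

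The E19 bladder arrays were not part of the rule. There 10 of the 32 members tested were called by limma at an adjusted p under 0.05, 6 higher and 4 lower, against 20.0% of all genes called in either direction, 13.5% higher and 6.49% lower. All 6 higher calls were among the genes higher at E18, and all 4 lower calls among the 8 genes of the reverse direction. Marker lists moved on the same arrays: at E19 limma called 13 of 25 intestinal and goblet cell genes higher (list median 1.11), 10 of 11 proliferation genes higher (list median 0.67) and 11 of 14 basal epithelial genes lower (list median -2.16). Their part in the members' differences was not tested. Over the 24 tested genes higher at E18 the median E19 difference was 0.38, and over the 8 lower it was -1.38, beside 0.09 over all genes. Barrier genes gave 4 of the calls. Anxa9 read 11.04 and 11.07 in knockout and 9.48 and 9.33 in wild type, and rose by 1.65 (SE 0.24, adjusted p 0.000103). Cyp4f39 read 8.95 and 8.65 against 7.09 and 7.32, and rose by 1.60 (SE 0.23, adjusted p 6.72e-05). Neither gene's groups overlapped. Degs2 read 11.74 and 11.72 against 10.43 and 10.50, and rose by 1.27 (SE 0.20, adjusted p 0.00019). Gsdma rose by 1.61 (SE 0.30, adjusted p 0.000917). The other 5 barrier genes did not pass. Elovl4, the elongase, differed by only 0.13 (SE 0.20) at E19, where its knockout arrays read 10.98 and 11.03 and its wild-type arrays 10.99 and 10.77. Another Elovl4 probe set differed by 0.61 in bladder at E18, against 1.21 for the one used. Krt23 differed by -0.22 (SE 0.32), Scnn1b by 0.43 (SE 0.24), Bcl2l15 by 0.32 (SE 0.57) and Tmem238l by 1.27 (SE 0.58, adjusted p 0.133).

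At E15, also outside the rule, 7 of 32 members were called, all of them higher in knockout, against 7.04% of all genes in either direction, 4.55% higher and 2.49% lower. They were Gsdma (1.71, SE 0.30), Degs2 (1.60, SE 0.20), Cyp4f39 (1.53, SE 0.23), Krt23 (1.48, SE 0.32), Blnk (1.35, SE 0.29), Scnn1b (0.90, SE 0.24) and Anxa9 (0.84, SE 0.24), with limma adjusted p-values from 0.000111 for Degs2 to 0.043 for Anxa9. Degs2 read 10.99 and 10.87 in knockout and 9.21 and 9.44 in wild type. The actin measure of RNA quality also went with genotype at this stage. It was 1.33 and 1.12 on the knockout arrays and 0.69 and 0.78 on the wild-type arrays. With that difference as a covariate none of the 7 was called, though all 7 stayed higher, by 0.49 (Scnn1b) to 1.78 (Krt23). Without wild-type replicate 1, 2 were called, and without knockout replicate 1, 3 were called. Degs2 and Cyp4f39 were called whichever of the 4 arrays was left out. The part of RNA quality in these differences was not tested further. Cyp4f39, Degs2, Gsdma, Anxa9 and Blnk were called at both E15 and E19.

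**Figure D3:**
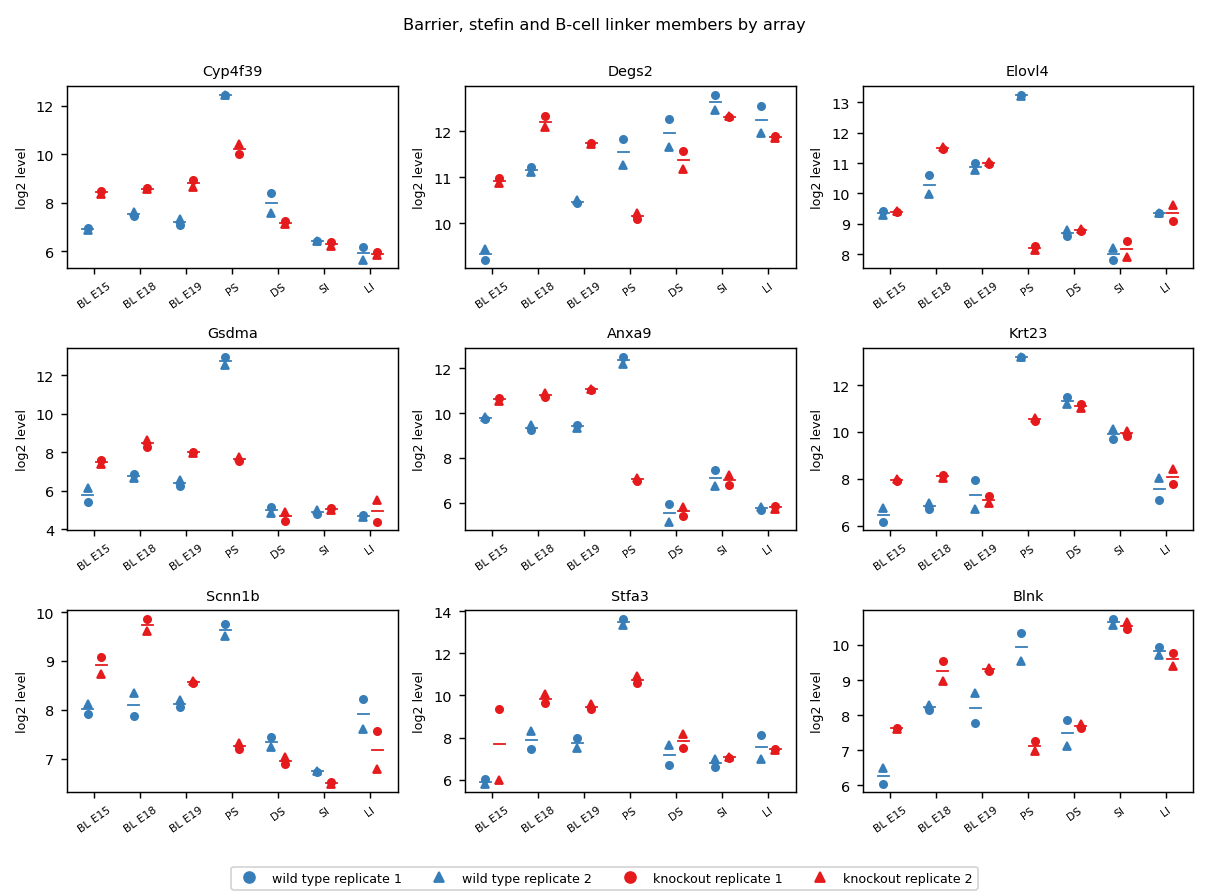
Log2 level (vertical axis) of 9 members on each of the 28 arrays, by tissue and stage (BL bladder, PS proximal stomach, DS distal stomach, SI small intestine, LI large intestine). Blue is wild type, red knockout, circles and triangles are replicates 1 and 2, and short lines are group means. In proximal stomach every wild-type point lies above the knockout points, while in bladder at E18 every knockout point lies above the wild-type points.

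The ceramide barrier needs further enzymes, and 10 of them were looked up after the members' values had been seen, so they are given as description only. In knockout proximal stomach the acylceramide synthase Pnpla1 differed by -6.35, Sdr9c7 by -6.13, the lipoxygenases Aloxe3 and Alox12b by -5.03 and -3.08, and the lipid transporter Abca12 by -4.17. Smaller differences were seen there for the lipase cofactor Abhd5 (-1.57), the elongase Elovl1 (-1.29), the glucosylceramide synthase Ugcg (-1.05), the ceramide synthase Cers3 (-0.95) and the fatty acid transporter Slc27a4 (-0.52). In bladder at E18 the same 10 lay between -0.35 (Alox12b) and 0.53 (Slc27a4). Pnpla1 read 4.46 and 4.68 in knockout bladder and 4.69 and 4.19 in wild-type bladder, against 11.13 and 10.57 in wild-type proximal stomach. At E19, where the rule used no array, 3 of the 10 were called by limma in knockout bladder, Abca12 (0.73, adjusted p 0.0361) and Slc27a4 (0.62, adjusted p 0.0135) higher and Ugcg (-0.80, adjusted p 0.000294) lower, beside 20.0% of all genes. At E15 limma called Elovl1 (0.53, adjusted p 0.00847) and Slc27a4 (0.76, adjusted p 0.00976) higher and Ugcg (-0.55, adjusted p 0.0168) lower, beside 7.04% of all genes. Of the other sodium channel subunits, Scnn1g was 1.48 higher in knockout bladder at E18 and differed by -0.23 in proximal stomach, and Scnn1a differed by 0.12 and -0.68. Scnn1g rose in knockout bladder at E19 by 1.22 (limma adjusted p 0.0134).

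Stefins and immune signalling genes made up 6 of the 26. Stfa3 and Stfa2l1 encode stefins, inhibitors of cysteine proteases found in myeloid cells and keratinocytes, and are near copies in a gene cluster, so their probe sets may share signal. Ccl6 encodes a chemokine, Blnk the B-cell linker adaptor, Rasgrp1 an activator of Ras in lymphocytes and keratinocytes, and Slfn2 a Schlafen family regulator of immune cell quiescence. All 6 had both knockout arrays above both wild-type arrays in bladder at E18 and below them in proximal stomach, as 27.0% and 28.6% of all genes that passed the filter had; the rule used these arrays.

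Stfa3 in bladder at E18 read 9.63 and 10.05 in knockout and 7.48 and 8.30 in wild type. The proximal stomach arrays read 10.58 and 10.92 in knockout and 13.65 and 13.36 in wild type. At E19 it read 9.33 and 9.61 against 7.999 and 7.49, without overlap, a difference of 1.73 (SE 0.63) that did not pass (limma adjusted p 0.0597). At E15 the 2 knockout arrays stood apart from each other, at 9.36 and 6.0, with wild type at 6.01 and 5.81. Stfa2l1 repeated that split, with 8.60 and 5.61 in knockout and 5.92 and 5.77 in wild type at E15. Its E18 bladder arrays read 9.22 and 9.97 against 6.64 and 7.78, and its proximal stomach arrays 8.18 and 9.16 against 10.50 and 10.28. At E19 Stfa2l1 read 10.44 and 10.22 against 8.81 and 8.47 and rose by 1.69 (SE 0.57, adjusted p 0.0425), a call lost when any 1 of the 4 arrays was left out, with adjusted p from 0.101 to 0.176. Without knockout replicate 2 at E15 both stefins were called, at 3.45 for Stfa3 and 2.75 for Stfa2l1. Without knockout replicate 1 their differences were 0.09 and -0.23.

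Rasgrp1 in bladder read 8.54 and 8.46 in knockout at E15, 8.51 and 7.24 at E18, and 7.61 and 7.54 at E19. Its wild-type arrays read 7.36 and 7.24, 5.43 and 5.99, and 6.93 and 7.18. Knockout lay above wild type at each stage. The E18 gap was the widest of the 3, on arrays that the rule used. Other Rasgrp1 probe sets differed in bladder at E18 by 0.05, 0.36 and 0.34, against 2.16 for the one used. Its proximal stomach arrays read 7.52 and 6.76 in knockout and 11.14 and 10.87 in wild type. Its E19 difference of 0.52 and E15 difference of 1.20 did not pass (limma adjusted p 0.377 and 0.063). Blnk rose at E19 by 1.11 (SE 0.29, adjusted p 0.0108), from 7.76 and 8.64 in wild type to 9.26 and 9.36. That call was lost without wild-type replicate 1 (0.67, adjusted p 0.19), knockout replicate 1 (adjusted p 0.0511) or knockout replicate 2 (adjusted p 0.0745). Ccl6 (0.82, adjusted p 0.156) and Slfn2 (0.17, adjusted p 0.743) did not pass at E19. Of 15 immune cell markers, such as Ptprc and Csf1r, 2 were called higher in knockout bladder at E19, beside 13.5% of all genes. At E15, 1 was called higher and 1 lower, beside 4.55% and 2.49% of all genes. The mean level of that marker list at E19 was 9.98 and 10.05 on the knockout arrays and 9.82 and 9.54 on the wild-type arrays. The part of immune cell number in the levels of these 6 genes was not tested.

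The 8 skeletal muscle members are Myog, the transcription factor myogenin; Mymx, a micropeptide of myoblast fusion; Myh3, the embryonic myosin heavy chain; the light chains Mylpf and Myl1; the M-band protein Myom2; the kinase Mylk4; and Synpo2l, a sarcomeric protein. Their bladder difference came from 1 array. Myog at E18 read 8.88 on knockout replicate 1, 5.26 on knockout replicate 2 and 4.93 and 4.81 in wild type. Mylpf read 11.67, then 8.10, with wild type at 7.77 and 7.98. Myh3 read 11.06 and 7.22 against 7.25 and 7.19. Knockout replicate 2 was within or near the wild-type range in each case. Both knockout arrays lay above both wild-type arrays for 2 of the 8. Without knockout replicate 1, none of the 8 met the rule; the set then held 41 genes, 22 of them shared with the 34.

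That E18 array also read higher for markers of several other cell types. It exceeded the 3 other E18 bladder arrays by at least 1 log2 for 7 of 15 measured skeletal muscle markers, 14 of 21 neuron and glia markers and 3 of 6 liver markers, against 0.867% of all genes. It did so too for 3 of 14 enteroendocrine, 3 of 25 intestinal and goblet, 2 of 28 squamous, 2 of 16 retinoid and 2 of 11 immediate early and heat shock genes. The mean level of the 21 neuron and glia markers was 9.06 on it and 7.51, 7.08 and 7.83 on the others. That of the 15 muscle markers was 10.92, against 9.68, 9.54 and 9.42. No smooth muscle, fibroblast or endothelial marker exceeded the others by that amount. The 7 muscle markers include Myog, Mylpf and Myh3, which the rule chose with this array. The rule therefore bears on that muscle count and on the muscle mean at E18. At E15 it was knockout replicate 2 that stood out, with Myog at 7.36 against 5.72, 5.67 and 5.68, Mylpf at 10.77 against 7.95, 7.48 and 8.08, and Myh3 at 10.01 against 6.95, 6.55 and 6.79. On that array 8 of the 15 muscle markers and 5 of the 21 neuron and glia markers were at least 1 log2 above the other 3, against 0.294% of all genes. At E19 Myog read 5.002 and 5.37 in knockout and 4.53 and 5.42 in wild type, and Mylpf 7.56 and 7.83 against 7.65 and 7.34. None of the 6 muscle members tested was called at E19 or at E15 by limma, and 0 at E19 and 3 at E15 (Myh3, Myl1 and Myom2) had an unadjusted p under 0.05, as 33.1% and 22.4% of all genes did. The spread in that fit includes the E18 knockout bladder arrays. Myh3 had a standard deviation of 2.72 there, against 0.014 in knockout bladder at E19.

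In proximal stomach the muscle members were lower in knockout on both arrays. Myog read 5.09 and 4.22 in knockout and 9.08 and 7.88 in wild type, and Mymx 4.40 and 4.67 against 9.17 and 7.59. Mylpf read 7.73 and 7.23 against 10.27 and 8.99. All 8 were separated there, on arrays that the rule used (28.6% of all genes that passed the filter were lower in this way), and wild-type replicate 1 was above replicate 2 for 7 of the 8, Myom2 being the exception. Without that wild-type array 5 of the 8 stayed in the set. In a list of 15 measured muscle genes, 6 were at least 1 log2 lower in knockout proximal stomach and none higher. The 6 include the members Myog, Mylpf and Myh3, which the rule required to be that much lower, so part of the count was fixed. In bladder, 3 of that list were called higher at E15 and none at E19, beside 4.55% and 13.5% of all genes.

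**Figure D4:**
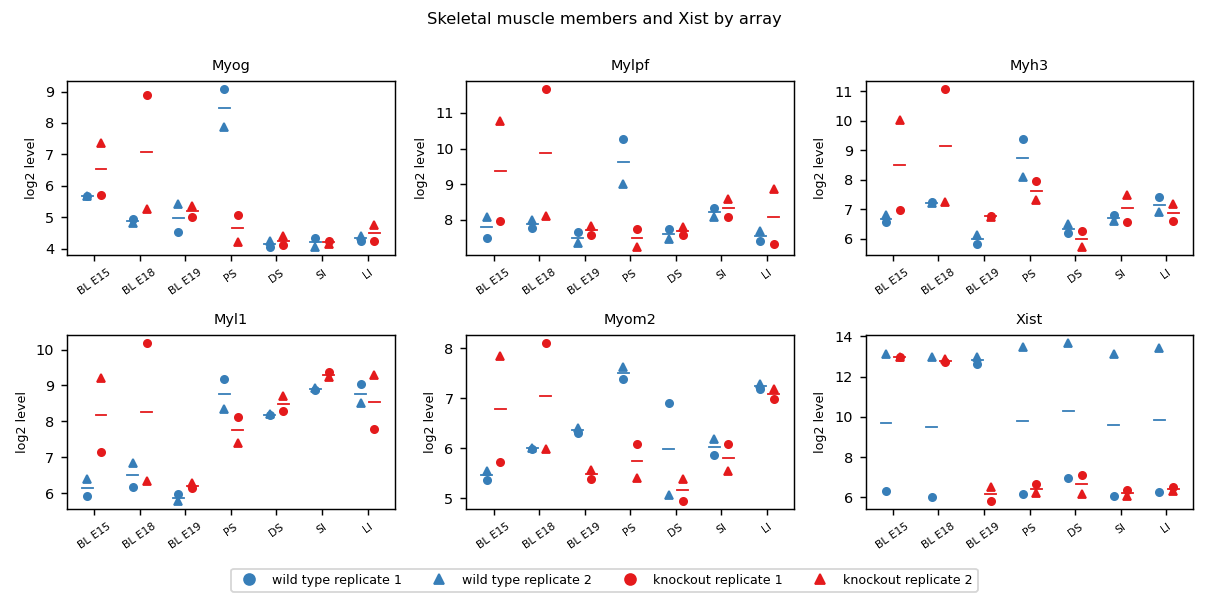
Log2 level (vertical axis) of 5 skeletal muscle members and Xist on each of the 28 arrays, by tissue and stage (BL bladder, PS proximal stomach, DS distal stomach, SI small intestine, LI large intestine). Blue is wild type, red knockout, circles and triangles are replicates 1 and 2, and short lines are group means. The muscle genes are high on knockout replicate 1 in E18 bladder and on knockout replicate 2 in E15 bladder, and Xist falls into a high and a low level.

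Of the 3 remaining genes higher in knockout bladder, Xist, the RNA that coats the inactive X chromosome of female cells, took 2 levels, between 5.82 and 7.12 or between 12.62 and 13.66. In bladder it read 12.98 and 12.98 in knockout and 6.31 and 13.12 in wild type at E15, and 12.74 and 12.87 against 6.003 and 12.99 at E18. At E19 the order was turned, with 5.82 and 6.49 in knockout and 12.62 and 12.99 in wild type. In proximal stomach it read 6.67 and 6.19 in knockout and 6.15 and 13.47 in wild type. The genotypes overlapped at E15, E18 and in proximal stomach, so the mean differences of 3.30 and -3.38 that placed Xist in the set rest on 1 wild-type array each. Eif2s3y, a gene of the Y chromosome, read 4.18 and 4.24 in knockout and 11.80 and 4.13 in wild-type bladder at E18. Its proximal stomach values were 11.97 and 4.18 in knockout and 12.03 and 4.70 in wild type. Knockout replicate 2 of proximal stomach was therefore low for both genes, as were the second knockout replicates of distal stomach, small intestine and large intestine, where Xist lay between 6.05 and 6.29 and Eif2s3y between 4.06 and 4.19. At E19 the knockout arrays had Eif2s3y at 11.65 and 11.59 and the wild-type arrays 4.59 and 4.48. Sex-linked levels thus went with genotype at E19, and their part in the other members' differences was not tested. Ptgds, a prostaglandin D synthase, read 8.90 and 9.12 in knockout and 7.71 and 8.07 in wild-type bladder at E18, and 8.06 and 7.87 against 10.61 and 11.32 in proximal stomach, and differed by 0.03 at E19. Another Ptgds probe set differed by 0.17 in bladder at E18, against 1.12 for the one used. Ccdc25, a coiled-coil protein, read 8.17 and 7.82 against 7.38 and 6.5 in bladder and 6.97 and 7.04 against 7.69 and 8.53 in proximal stomach, and differed by 0.21 in bladder at E19.

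The 8 genes of the reverse direction are Wfdc2, a whey acidic protein family inhibitor secreted by glandular epithelia; Fut4, a fucosyltransferase; Kcnn4, a calcium-activated potassium channel; Adam28, a metalloprotease; Cyp2f2, a cytochrome P450 of airway club cells; Krt6a, a stress keratin of stratified epithelium; Igsf10, an immunoglobulin superfamily protein; and Fam167a, of unknown function. In bladder at E18 both knockout arrays lay below both wild-type arrays for all 8, as for 22.2% of all genes that passed the filter, and in proximal stomach both lay above for 7, as for 35.2% of all genes, Krt6a being the exception. The rule used these arrays, so nothing is read from these counts.

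Kcnn4 in bladder read 7.36 and 7.10 in knockout at E15, 8.01 and 7.83 at E18, and 8.30 and 7.96 at E19. In wild type it read 6.998 and 7.14, 9.90 and 9.56, and 11.26 and 11.23. The genotypes overlapped at E15 and were apart at E18 and E19, as wild type climbed and knockout stayed between 7.10 and 8.30. At E19 Kcnn4 fell by 3.12 in knockout (limma, SE 0.33, adjusted p 2.85e-06). In proximal stomach it read 9.83 and 9.56 in knockout and 7.66 and 8.09 in wild type.

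Wfdc2 in bladder read 11.25 and 10.67 in knockout and 10.75 and 10.64 in wild type at E15, 11.67 and 10.90 against 12.58 and 12.29 at E18, and 10.78 and 10.79 against 12.50 and 12.37 at E19. The E15 groups overlapped and the later ones did not. It fell at E19 by 1.65 (limma, SE 0.23, adjusted p 6.68e-05). In proximal stomach it read 14.03 and 13.99 in knockout and 8.82 and 9.16 in wild type, the widest gap of the 8. Of 14 measured genes of a mucosal defence list, which holds Wfdc2, 3 were called lower and 1 higher in knockout bladder at E19. Of all genes 6.49% were called lower there and 13.5% higher.

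Fut4 in bladder read 8.78 and 8.58 against 8.99 and 8.97 at E15, 8.16 and 7.63 against 9.17 and 9.06 at E18, and 6.92 and 7.60 against 9.43 and 9.05 at E19, with knockout given first. The gap widened from stage to stage, with E18 read on arrays that the rule used. Another Fut4 probe set differed by -0.15 in bladder at E18. At E19 Fut4 fell by 1.98 (limma, SE 0.29, adjusted p 9.2e-05). Its proximal stomach values were 9.28 and 9.69 in knockout and 6.99 and 7.31 in wild type. Adam28 in bladder read 7.47 and 7.32 against 7.85 and 8.53 at E15, 8.46 and 8.08 against 9.53 and 9.72 at E18, and 7.07 and 7.12 against 8.39 and 8.47 at E19. Knockout was below wild type at each stage, and at E19 it fell by 1.33 (limma, SE 0.26, adjusted p 0.00109). In proximal stomach Adam28 read 12.08 and 12.17 in knockout and 10.37 and 10.57 in wild type. Another Adam28 probe set differed by -0.59 in bladder at E18, against -1.35 for the one used.

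The other 4 did not pass at E19. Cyp2f2 in bladder at E18 read 7.80 and 4.10 in knockout and 7.87 and 8.86 in wild type, so 1 knockout array was near wild type. At E15 it read 3.74 and 4.07 against 3.98 and 4.87, and at E19 6.02 and 6.47 against 7.9 and 7.46, a difference of -1.44 (SE 1.002, adjusted p 0.342). Its levels in proximal stomach were 13.36 and 13.32 against 11.72 and 10.93. Krt6a in proximal stomach read 12.69 and 13.28 in knockout and 10.04 and 12.99 in wild type, which overlap. In bladder it read 6.35 and 5.998 against 6.28 and 6.23 at E15, 6.21 and 6.46 against 7.94 and 7.41 at E18, and 7.72 and 7.44 against 9.36 and 8.08 at E19, a difference of -1.14 (SE 0.56, adjusted p 0.166). In a list of squamous markers, which holds Krt6a, 19 of 28 measured genes were at least 1 log2 lower in knockout proximal stomach at E18 and 1 was higher. That 1 was Krt6a.

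Igsf10 in bladder read 6.81 and 6.58 against 6.39 and 6.20 at E15, 6.95 and 6.98 against 8.28 and 8.28 at E18, and 4.01 and 4.52 against 4.40 and 4.03 at E19. Its lower level in knockout was thus seen at E18 alone among the 3 stages, and at E15 knockout lay above wild type. The E19 values of both genotypes were about as low as those of Eif2s3y on the wild-type E19 bladder arrays (4.59 and 4.48). At such low levels a decrease in knockout could hardly show. In proximal stomach it read 7.46 and 6.73 in knockout and 6.52 and 5.60 in wild type. Fam167a in bladder read 4.90 and 4.85 against 5.41 and 5.56 at E15, 4.57 and 4.68 against 5.46 and 5.86 at E18, and 4.78 and 4.52 against 5.09 and 5.97 at E19. Knockout was lower at each stage, with an E19 difference of -0.88 that did not pass (limma, SE 0.33, adjusted p 0.0634). All these bladder levels were low. Distal stomach, where the gene was lowest as well, read 4.71 and 4.45 in knockout and 4.60 and 4.39 in wild type. The bladder differences of Fam167a therefore lie near the bottom of its range. In proximal stomach Fam167a read 8.77 and 8.96 in knockout and 5.50 and 5.61 in wild type.

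**Figure D5:**
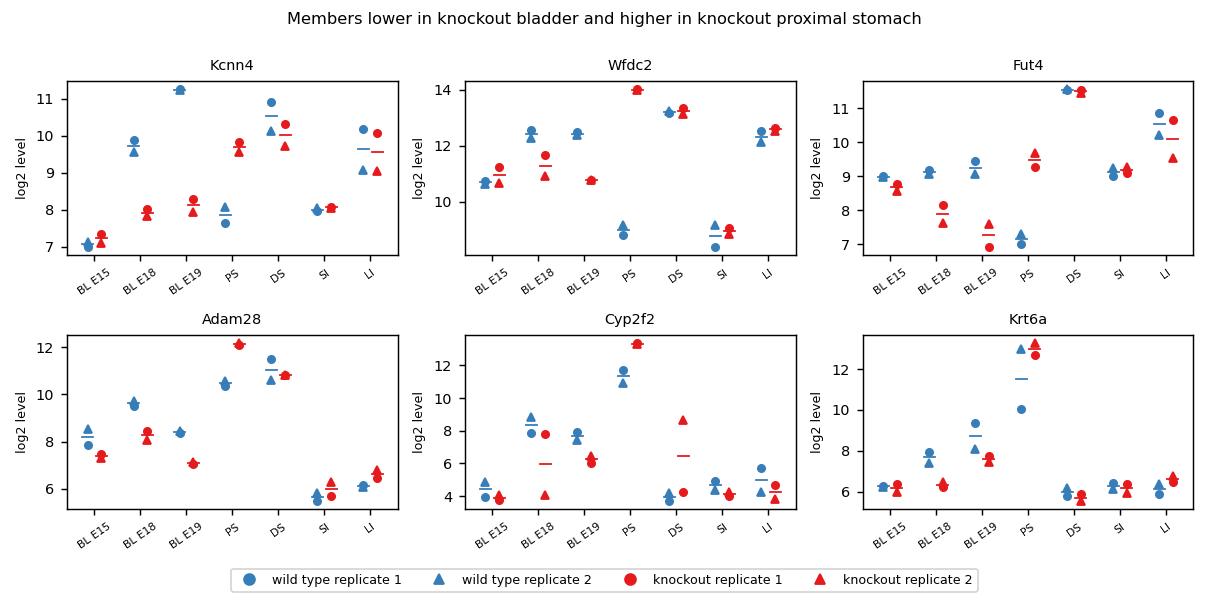
Log2 level (vertical axis) of 6 of the 8 genes lower in knockout bladder and higher in knockout proximal stomach on each of the 28 arrays, by tissue and stage (BL bladder, PS proximal stomach, DS distal stomach, SI small intestine, LI large intestine). Blue is wild type, red knockout, circles and triangles are replicates 1 and 2, and short lines are group means. Wild-type Kcnn4 reaches 11.26 and 11.23 in E19 bladder while knockout stays at 8.30 and 7.96.

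Whether the knockout effect in bladder changed with stage was tested on the E15 and E19 arrays as an interaction. By limma 4 of 32 members were called, all with a lower effect at E19, against 8.59% of all genes in either direction and 3.51% lower. They were Kcnn4 (-3.28, SE 0.47, adjusted p 0.000372), Wfdc2 (-1.92, SE 0.33, adjusted p 0.00159), Fut4 (-1.68, SE 0.41, adjusted p 0.0144) and Krt23 (-1.71, SE 0.46, adjusted p 0.0246). Knockout and wild-type arrays overlapped at E15 for Kcnn4 and Wfdc2, while for Fut4 both knockout arrays were already the lower ones there (-0.31, which did not pass). With the actin difference as a covariate Kcnn4 alone was called, and the differences of the others were -1.85 for Wfdc2, -1.47 for Fut4 and -2.03 for Krt23. Without wild-type replicate 1 of E15 or of E19, 2 were called, Kcnn4 and Wfdc2. The Fut4 call was also lost without knockout replicate 1 of either stage, and the Krt23 call without either knockout array of E15 or knockout replicate 2 of E19. Cyp4f39 and Gsdma differed between stages by 0.07 and -0.10, which did not pass.

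In wild-type bladder, 14 of the 32 tested members were higher at E19 than at E15 and 2 were lower (limma, adjusted p under 0.05), against 72.0% of all genes called, 29.8% higher and 42.2% lower. The median of all genes was -0.16 in this comparison and 0.14 after median centring of each array, under which 16 members were higher and 2 lower. Kcnn4 rose by 4.18 (SE 0.33), Stfa2l1 by 2.79, Krt6a by 2.47, Ptgds by 2.32 and Wfdc2 by 1.74. Elovl4 rose by 1.52 and Degs2 by 1.14, while Igsf10 fell by 2.08 and Ccdc25 by 1.29. The highest levels of Igsf10 (8.28 and 8.28, wild-type E18 bladder) were on arrays of the rule. So were those of Ccdc25 (8.53 in wild-type proximal stomach and 8.17 in knockout E18 bladder). Whether they passed the filter through those arrays alone was not tested. Neither gene was in the fit with the filter at the 75th percentile. Of the 8 reverse genes, Kcnn4, Wfdc2, Krt6a and Cyp2f2 rose, the last not when wild-type replicate 1 of E15 was left out (adjusted p 0.0553).

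Distal stomach, small intestine and large intestine lack a stratified lining, and no member was called between genotypes there by limma. Of all genes 0% were called in distal stomach, 0% in small intestine and 0.0882% in large intestine (0.0588% higher and 0.0294% lower). At an unadjusted p under 0.05 stood 4 members in distal stomach (Cyp2f2, Cyp4f39, Degs2 and Slfn2), 1 in small intestine (Fam167a) and 1 in large intestine (Scnn1b), as did 3.88%, 4.59% and 4.89% of all genes. Cyp2f2 in distal stomach read 8.66 on knockout replicate 2, against 4.25 on replicate 1 and 3.71 and 4.22 in wild type. Trp63 read 8.73 on that same array and 7.38, 7.03 and 7.20 on the others. Cyp4f39 in distal stomach read 7.25 and 7.12 in knockout and 8.40 and 7.57 in wild type. Without wild-type replicate 2 of distal stomach Cyp4f39 (-1.22, adjusted p 0.00787) and Degs2 (-0.89, adjusted p 0.0426) were called, and without wild-type replicate 1 of large intestine Bcl2l15 was called (-2.25, adjusted p 0.0294).

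The difference between the E19 bladder effect and the E18 distal stomach effect was tested directly. Distal stomach was sampled at E18 alone, so tissue and stage cannot be told apart in this test. Sex-linked levels also went with genotype in E19 bladder but not in distal stomach. By limma 7 of 32 members were called, against 7.68% of all genes, 4.82% higher and 2.86% lower. The effect was higher in bladder for Cyp4f39 (2.40, SE 0.32, adjusted p 0.000161), Gsdma (1.91, SE 0.43, adjusted p 0.0103), Degs2 (1.86, SE 0.28, adjusted p 0.000591) and Anxa9 (1.58, SE 0.35, adjusted p 0.00884). It was lower in bladder for Kcnn4 (-2.62, SE 0.47, adjusted p 0.00231), Fut4 (-1.93, SE 0.41, adjusted p 0.00717) and Wfdc2 (-1.71, SE 0.33, adjusted p 0.00405). This test uses the E19 bladder arrays again. The Fut4 call was lost without knockout replicate 1 of E19 (adjusted p 0.0507), the Anxa9 call without wild-type replicate 1 of distal stomach (adjusted p 0.0617), and the Gsdma call without replicate 1 of either genotype in distal stomach (both adjusted p 0.0544).

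Among wild-type gut regions outside the rule, 13 of 32 members differed between the mean of small and large intestine and distal stomach (limma), against 27.8% of all genes. Higher in that intestinal mean were Bcl2l15 (4.85), Ccl6 (3.85), Blnk (2.76), Fam167a (1.75), Anxa9 (0.89) and Degs2 (0.48). Lower in it were Adam28 (-5.17), Wfdc2 (-2.65), Krt23 (-2.60), Rasgrp1 (-2.40), Cyp4f39 (-1.82), Fut4 (-1.71) and Kcnn4 (-1.71). For Fam167a and Anxa9 the small intestine was high (means 7.96 and 7.12). Their large intestine means (4.53 and 5.75) were near those of distal stomach (4.49 and 5.55). The members thus do not share 1 regional pattern along the wild-type gut. Without wild-type replicate 2 of distal stomach Anxa9 and Degs2 were not called, with differences of 0.50 and 0.17. Degs2 was also not called after median centring (limma adjusted p 0.0508), quantile normalization, or without the filter or the variance trend. Its call was lost too with the actin covariate, with array weights, and without wild-type replicate 1 of small or large intestine. On only the arrays compared, neither Degs2 (limma adjusted p 0.199) nor Anxa9 (0.0786) was called.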

How the data were processed

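Total RNA was extracted with Trizol and labelled with biotin by a 3′ IVT kit, per the labels' protocols. The deposited values are 1 log2 level per probe set and array. Per the submitters' processing notes, the authors worked with Affymetrix Expression Console and Partek; how background was corrected and arrays were normalized is not given in the sources used here. Arrays give no counts or depth, and their number limits the precision.

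No further normalization was applied. From 45101 probe sets, 64 controls were left out, and 34945 carry 1 gene symbol. Each gene took its probe set with the highest mean, and 13613 of 18193 genes passed the filter, which asks for a level above the array median on at least 2 of 28 arrays. Those genes entered 1 limma model (limma 3.58.1, with the data.table package, release 1.17.8, R 4.3.3) with a mean per group, a variance trend and 14 residual degrees of freedom. P-values are two-sided and adjusted over all genes tested, with calls at 0.05. Joins, motif searches and figures used Python 3.11.15, pandas 2.3.3 and matplotlib 3.10.9. The model was tested on simulated data.

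The members, their roles and the gene lists were chosen with earlier results of these data known. By the naming rule every member is named, and values on all bladder and proximal stomach arrays are given for the 8 members of each direction with the largest smaller-of-both E18 difference. Symbols and upstream windows come from RefSeq (GRCm38.p6); no window was used for Ccdc25, Gsdma, Mymx, Myom2, Adam28, Fam167a and Krt6a. Alternatives changed the filter, the scaling, the probe set rule, the arrays fitted, array weights, the variance trend, an actin covariate, a replicate block and single arrays.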

Additional observations from a re-analysis of the deposited data

Results flagged for a closer look

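The knockout effect in bladder differed between E19 and E15, by the interaction in limma, for Kcnn4 (-3.28, adjusted p 0.000372), Wfdc2 (-1.92, adjusted p 0.00159), Krt23 (-1.71, adjusted p 0.0246) and Fut4 (-1.68, adjusted p 0.0144). The knockout effect differed between E19 bladder and distal stomach, by the same kind of test, for Cyp4f39 (2.40, adjusted p 0.000161), Gsdma (1.91, adjusted p 0.0103), Degs2 (1.86, adjusted p 0.000591), Anxa9 (1.58, adjusted p 0.00884), Kcnn4 (-2.62, adjusted p 0.00231), Fut4 (-1.93, adjusted p 0.00717) and Wfdc2 (-1.71, adjusted p 0.00405). In the comparison with distal stomach, which was sampled at E18 alone, tissue and stage cannot be told apart. Groups of 2 arrays are too small to look for single outlying samples by a fixed rule.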

How the results depend on the processing

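The size of the set depended on its threshold: 34 genes at 1 log2, 10 at 1.5 and 77 at 0.8, and 22 with a filter at the 75th percentile. It held 32 genes after median centring (28 shared), 35 after quantile normalization (32 shared), 27 with the mean of a gene's probe sets, and 35 to 49 when 1 of the 8 arrays was left out. With the actin covariate 0 members were called at E15 and 1 for E19 minus E15, where the differences of Wfdc2, Krt23 and Fut4 were -1.85, -2.03 and -1.47; the cause was not tested. Leaving out 1 array gave 8 to 9 calls at E19, 2 to 8 at E15, 0 to 2 in distal stomach, 0 to 1 in large intestine, 2 to 4 for E19 minus E15 and 6 to 9 for E19 minus distal stomach. At E19 the other alternatives gave 9 to 15 calls, and Cyp4f39, Anxa9, Degs2, Gsdma, Kcnn4, Wfdc2, Fut4 and Adam28 were called in each of the 14 alternatives run. A limma fit of only the arrays compared, whose spread holds no rule array, gained calls at E19. They were Tmem238l (adjusted p 0.0024), Stfa3 (0.00441), Cyp2f2 (0.0133), Myom2 (0.0427) and Xist (6.21e-05). The labels do not say that replicate numbers pair samples. Deviations of same-numbered knockout and wild-type arrays correlated at 0.1963 to 0.2755 in proximal stomach, distal stomach and large intestine, at -0.0389 to -0.0027 in bladder and at -0.1268 in small intestine, so the numbers were not taken as pairs. With the number as a replicate block 11 members were called at E19, 8 at E15, 0 in distal stomach, small intestine and large intestine, 5 for E19 minus E15, 7 for E19 minus distal stomach, and 16 and 13 in the wild-type comparisons. The crossed pairing in small intestine gave 0; this and the readings by role without 1 array were added after seeing the data. At E19, 419 values of single members under the alternatives kept the call of the reported fit, 10 gained a call and 9 lost it.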
